A study of Rattus norvegicus with 9 samples.

Results

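The Zfp genes are rat genes that were named in series for the zinc finger protein they encode. They were taken as all probe sets annotated to exactly 1 symbol made of Zfp and a number, without Zfp36, which encodes an RNA-binding protein of another finger type. The array annotation held 192 such genes on 308 probe sets. Of these, 168 had a probe set above the dimmest 30% of the array and were tested, among 11287 genes in all, each by its brightest probe set. They were followed in the adrenal medulla, the catecholamine-secreting core of the adrenal gland, of adult rats of 280 to 320 g, on 9 Affymetrix arrays. Control rats were not stressed (3 arrays). The 1XIMO rats were immobilized in 1 session of 2 h (3 arrays), and the 6XIMO rats in 6 daily sessions of 2 h (3 arrays), and were killed by decapitation after the last of them; Control and stressed groups alike gave both medullae. The comparisons ask how a single and a repeated bout of this stress change RNA levels in the gland. Some label fields name mouse or brain, and the organism field, Rattus norvegicus, was followed.

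Most Zfp proteins bind DNA through C2H2 fingers, small folds in which a pair of cysteines and a pair of histidines hold a zinc ion. Many also carry a KRAB domain, which recruits the corepressor Trim28 (KAP1) and, through it, the histone methyltransferase Setdb1 and heterochromatin proteins, and silences the bound locus. Others act outside transcription, as ubiquitin or SUMO ligases, in RNA splicing or in ribosome assembly. In the chromaffin cells of the medulla, stress hormones and splanchnic nerve input act on other zinc finger factors, such as Egr1, at the genes of catecholamine synthesis.

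The deposited values are linear intensities, 1 per probe set and array, and a level here is log2(intensity + 16). The labels do not say that each array holds a separate animal, so the p-values reflect how these 9 samples scatter, which may be technical. Trimmed means of the arrays lay between 2500.6 and 2501, so the arrays had been scaled as wholes. The 6XIMO arrays stood apart in the array controls. The ratio of the 3' to the 5' probe set for actin, which is high where labelled RNA is incomplete, was 231 on 6XIMO replicate 1 and 6.11 and 8.87 on replicates 2 and 3, against 1.45 to 2.15 on the 6 other arrays. This ratio and the 6XIMO treatment cannot be told apart, and differences from 6XIMO that passed or came near the threshold are given with and without its replicate 1. The chromaffin markers of the medulla were bright in all groups, with mean levels per array of 14.47 to 15.10 in Control, 14.71 to 15.40 in 1XIMO and 15.55 to 16.13 in 6XIMO over 9 of 10 listed genes. Markers of the adrenal cortex, the tissue around the medulla, were as bright, with 14.63 to 15.07, 14.50 to 15.56 and 15.58 to 15.99 over 9 of 12 listed genes. In bulk tissue, fewer cells of a type and less RNA per cell cannot be told apart.

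The probe sets of the Zfp genes had a median level over the 9 arrays of 10.67, against 11.42 for all genes tested. This is a description of signal, which also depends on the probes, and the filter used the same mean, so it does not order transcripts by abundance. The probe sets with the strongest signal were those of Zfp347 at a mean level of 13.87, Zfp706 at 13.78 and Zfp330 at 13.50. The filter stood at a level of 8.51. Just inside it lay Zfp136 at 8.61, Zfp74 at 8.62 and Zfp775 at 8.78, and just outside it Zfp772 at 8.39, Zfp112 at 8.34 and Zfp617 at 8.28. A total of 24 annotated Zfp genes fell under the filter and were not tested. Of the 168, 8 had a group mean under the filter level, and 1 of these 8, Zfp775, passed a test below. Replicate spread was alike in Control and 1XIMO and wider in 6XIMO. The median SD of a Zfp gene was 0.19 in Control, 0.20 in 1XIMO and 0.51 in 6XIMO, against 0.21, 0.21 and 0.55 for all genes.

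After a single session, a few Zfp genes changed by large factors and most did not pass the test. The 4 transcripts of Zfp347, Zfp536, Zfp612 and Zfp131, rose by 2.48-fold to 9.18-fold. A total of 10 fell, by up to 6.21-fold, among them Zfp775, Zfp395, Zfp688 and Zfp217. The 6.21-fold fall was that of Zfp775, which passed the filter through its Control signal alone, so the filter favours it. The remaining 154 did not pass, with log2 differences between -1.60 and 0.92. All differences were tested with limma on the 9 arrays at a Benjamini-Hochberg adjusted p under 0.05 over all genes, and folds are on the log2(intensity + 16) scale.

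Zfp536 encodes a brain-rich zinc finger protein that holds back neuronal differentiation in mouse cells. Its level was 10.10, 10.52 and 9.81 in Control, 12.01, 12.49 and 12.46 in 1XIMO and 12.35, 11.94 and 11.63 in 6XIMO. The groups of stressed rats lay wholly above Control. The log2 difference was 2.18 ± 0.27 (SE) for 1XIMO against Control (adjusted p = 0.00107) and 1.83 ± 0.27 for 6XIMO against Control (adjusted p = 0.0018), and 1.64 without 6XIMO replicate 1. These comparisons share the Control arrays. Against Control, Zfp536 kept its call under all 21 other settings tried, in both comparisons, with 1.20 and 1.12 for the mean of its probe sets.

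Zfp347 showed the largest rise after 1 session. Its level was 12.67, 12.06 and 11.96 in Control and 15.98, 15.25 and 15.07 in 1XIMO, a difference of 3.20 ± 0.71 (adjusted p = 0.0207). In 6XIMO the arrays split, with 11.94 on replicate 1 and 14.78 and 15.15 on replicates 2 and 3, and the difference from Control was 1.73 ± 0.71 (adjusted p = 0.104). Replicate 1, the array with the actin ratio of 231, lay just below the Control range, and the other 6XIMO arrays lay near 1XIMO. Without replicate 1 the 6XIMO difference was 2.74 (adjusted p = 6.75e-05). Zfp612 measured 10.97, 11.17 and 10.57 in Control, 11.96, 12.50 and 12.44 in 1XIMO and 11.78, 12.03 and 11.51 in 6XIMO. It rose by 1.40 ± 0.24 after 1 session (adjusted p = 0.0072) and by 0.87 ± 0.24 after 6 (adjusted p = 0.028, and 0.87 without 6XIMO replicate 1). Its second probe set gave 0.95 and 0.40, and for the mean of both the 6XIMO difference was 0.64 (adjusted p = 0.141).

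Zfp131, a BTB-domain zinc finger protein, rose after 1 session and was lower again after 6. Its level was 10.56, 10.26 and 10.04 in Control, 11.53, 11.23 and 12.04 in 1XIMO and 10.06, 10.27 and 10.41 in 6XIMO. The difference was 1.31 ± 0.27 after 1 session (adjusted p = 0.0153) and -0.04 ± 0.27 after 6 (adjusted p = 0.926). Between 6XIMO and 1XIMO it fell by 1.36 ± 0.27 on the log2 scale (adjusted p = 0.0181, and -1.26 without 6XIMO replicate 1). A second Zfp131 probe set read 1.26 higher after 1 session and 0.91 higher after 6, so the return to the Control level was seen on the brighter probe set and not on the other. For the mean of both, the difference between 6XIMO and 1XIMO was -0.85 (adjusted p = 0.0549).

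**Figure D1:**
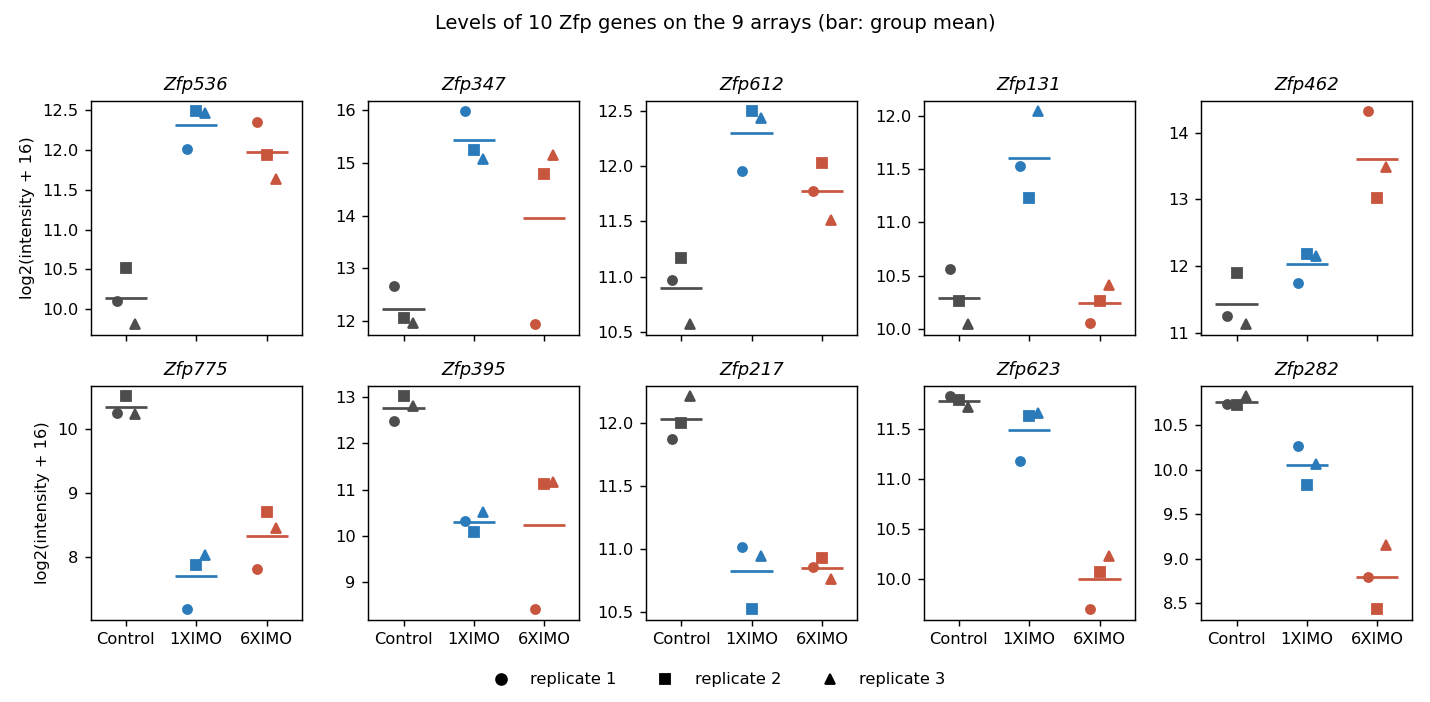
Level, log2(intensity + 16), of 10 Zfp genes on each array of Control, 1XIMO and 6XIMO, with symbols for the replicate and bars for group means; each panel has its own vertical scale. Zfp536 lay between 11.63 and 12.49 on all 6 stressed arrays against 9.81 to 10.52 in Control, while Zfp347 on 6XIMO replicate 1 lay at 11.94, just below the Control range of 11.96 to 12.67.

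Zfp775 passed the filter through its Control signal alone, so its fall is of a kind that the filter favours. Its level was 10.25, 10.51 and 10.23 in Control, 7.18, 7.87 and 8.03 in 1XIMO and 7.81, 8.70 and 8.45 in 6XIMO, a fall of 2.63 ± 0.47 after 1 session (adjusted p = 0.00842) and of 2.01 ± 0.47 after 6 (adjusted p = 0.0139, and -1.76 without 6XIMO replicate 1). The stressed means lay under the filter level of 8.51, where the added 16 makes this scale understate a change, and the gene is not tested when the dimmest 50% of probe sets are left out. Zfp395, whose human counterpart binds the promoter of the Huntington disease gene, was at 12.48, 13.02 and 12.82 in Control, 10.32, 10.09 and 10.52 in 1XIMO and 8.41, 11.13 and 11.15 in 6XIMO. It fell by 2.47 ± 0.62 (adjusted p = 0.0349) and by 2.54 ± 0.62 (adjusted p = 0.0165), and the second value was -1.63 without 6XIMO replicate 1. No stressed array of either gene reached the Control range.

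Zfp217, whose human counterpart is amplified in breast cancers and works in CoREST-type repressor complexes, was at 11.87, 12.01 and 12.22 in Control, 11.02, 10.52 and 10.95 in 1XIMO and 10.86, 10.93 and 10.76 in 6XIMO. It fell by 1.20 ± 0.21 after 1 session (adjusted p = 0.00718) and by 1.18 ± 0.21 after 6 (adjusted p = 0.00417, and -1.19 without 6XIMO replicate 1), and its 6XIMO arrays were as tight as those of Control. Zfp688 was at 10.88, 11.43 and 11.43 in Control and 9.09, 9.83 and 9.87 in 1XIMO, and it fell by 1.65 ± 0.30 (adjusted p = 0.00892). In 6XIMO it was at 10.17, 10.56 and 10.34, a difference of -0.89 ± 0.30 (adjusted p = 0.0556), which passed without replicate 1 (-0.79, adjusted p = 0.0418).

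Zfp110 (NRIF), which in mouse binds the p75 neurotrophin receptor and carries its signal, fell from 12.78, 12.72 and 13.05 in Control to 11.99, 11.82 and 11.94 in 1XIMO (-0.93 ± 0.20, adjusted p = 0.0204). Its 6XIMO levels of 12.07, 12.47 and 12.71 gave a difference of -0.43 ± 0.20 (adjusted p = 0.157). Zfp467, which in mouse marrow shifts stromal cells from bone towards fat, fell from 11.48, 12.03 and 11.61 to 10.12, 10.50 and 10.34 (-1.38 ± 0.30, adjusted p = 0.0206), and its 6XIMO levels were 12.01, 10.91 and 11.11. Both genes showed the single-session fall on all 3 arrays. With all arrays neither passed after 6 sessions, and without 6XIMO replicate 1 Zfp467 did, at -0.70 (adjusted p = 0.0201, against -0.36 with it), while Zfp110 gave -0.26. Zfp691 fell by 1.40 ± 0.34 and by 1.69 ± 0.34 in the 1XIMO and 6XIMO comparisons with Control (adjusted p = 0.0284 and 0.00683, and -1.51 in the second without 6XIMO replicate 1). Zfp710 fell by 1.13 ± 0.28 after 1 session (adjusted p = 0.0346). After 6 it gave -0.69 (adjusted p = 0.102), and -0.99 without replicate 1 (adjusted p = 0.00223). Zfp687, mutated in a severe form of human Paget disease of bone, fell by 0.98 ± 0.23 (adjusted p = 0.0264) and Zfp358 by 0.82 ± 0.20 (adjusted p = 0.0306). With the replicate number as a block these last 2 values had adjusted p = 0.0519 and 0.0525, just over the threshold.

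The count of 4 rises and 10 falls after 1 session is to be read against the whole array, where 4.2% of genes rose and 5.31% fell. The Zfp shares were 2.38% and 5.95%, so the share that fell lay near the background. The count depended on single arrays. It was 2 rises and 1 fall without Control replicate 2, 2 and 0 without Control replicate 3 (limma, with 26 at an unadjusted p under 0.05), 3 and 3 without 1XIMO replicate 1 or 2, and 2 and 3 without 1XIMO replicate 3. All-gene counts, in this order of arrays, were 276 rises and 142 falls, 241 and 119, 335 and 264, 262 and 200, and 243 and 159. Without 6XIMO replicate 1, which enters this comparison through the shared spread, the Zfp count was 10 and 50 (5.95% and 29.8%). Of all genes 9.77% and 20.2% then passed, so there the share that fell lay above the background. In the fit of Control and 1XIMO alone the Zfp count was 9 and 52, with 1055 and 2155 of 11287 genes. After quantile normalization it was 3 rises and 2 falls, with 4.08% and 3.07% of all genes.

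The promoters of 5 of these genes are shown because the genes moved farthest or most steadily after stress. For Zfp775 this choice carries the limit of the filter given above. Each run holds 300 bases from RefSeq on build GRCr8, 250 before and 50 after the annotated start, 5′ to 3′ in the direction of the gene. Capitals mark motifs found on either strand by their letters. They are the CRE TGACGTCA, bound by CREB, the NBRE AAAGGTCA, bound by Nr4a receptors, and the AP-1 site TGANTCA. The others are the E-box CACGTG, the GC box GGGCGG, bound by Sp factors, and the CAAT box CCAAT.
Zfp536, chr1:99598994-99599293, minus strand: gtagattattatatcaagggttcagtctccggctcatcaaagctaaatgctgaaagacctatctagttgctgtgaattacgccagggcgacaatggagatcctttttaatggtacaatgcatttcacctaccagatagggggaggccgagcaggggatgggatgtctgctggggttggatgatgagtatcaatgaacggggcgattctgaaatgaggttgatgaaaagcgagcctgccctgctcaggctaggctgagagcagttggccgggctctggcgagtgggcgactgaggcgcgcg
Zfp347, chr7:8117749-8118048, plus strand: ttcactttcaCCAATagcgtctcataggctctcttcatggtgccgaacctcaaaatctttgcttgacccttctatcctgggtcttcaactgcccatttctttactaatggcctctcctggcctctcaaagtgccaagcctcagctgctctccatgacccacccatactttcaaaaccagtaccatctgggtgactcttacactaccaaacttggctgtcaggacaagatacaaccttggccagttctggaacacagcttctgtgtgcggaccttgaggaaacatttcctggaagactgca
Zfp612, chr19:54963193-54963492, plus strand: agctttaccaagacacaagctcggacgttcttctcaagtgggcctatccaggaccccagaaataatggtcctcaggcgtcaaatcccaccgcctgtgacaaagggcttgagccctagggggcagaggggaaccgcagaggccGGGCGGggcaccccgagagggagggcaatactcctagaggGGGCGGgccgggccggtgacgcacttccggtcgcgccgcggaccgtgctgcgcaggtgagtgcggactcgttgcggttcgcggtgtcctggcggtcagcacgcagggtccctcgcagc
Zfp217, chr3:179321644-179321943, minus strand: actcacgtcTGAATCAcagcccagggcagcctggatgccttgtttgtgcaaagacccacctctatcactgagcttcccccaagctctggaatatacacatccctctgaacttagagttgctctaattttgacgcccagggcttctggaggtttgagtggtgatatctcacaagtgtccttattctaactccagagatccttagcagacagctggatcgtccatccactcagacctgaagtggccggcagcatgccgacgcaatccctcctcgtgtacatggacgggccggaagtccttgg
Zfp775, chr4:78887780-78888079, plus strand: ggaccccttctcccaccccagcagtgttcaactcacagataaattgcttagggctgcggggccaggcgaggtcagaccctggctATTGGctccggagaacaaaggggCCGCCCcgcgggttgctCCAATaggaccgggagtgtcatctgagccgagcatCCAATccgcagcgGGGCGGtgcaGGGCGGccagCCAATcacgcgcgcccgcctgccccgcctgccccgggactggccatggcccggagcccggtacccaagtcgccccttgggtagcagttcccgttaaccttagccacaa
The Zfp536 window held none of these motifs. Zfp347 had a CAAT box at -240 from the start, Zfp612 GC boxes at -108 and -68, and Zfp217 an AP-1 site at -241. The Zfp217 window reads ATG, the letters of a start codon, from its annotated start on. That start may be one of coding sequence and not of transcription. Zfp775 had 3 GC boxes and 4 CAAT boxes.

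A promoter was found for 139 of the 168 genes. The CRE stood in 5 of 139 (3.6%), against 2.2% of 18999 protein-coding promoters, the AP-1 site in 8 (5.8%, against 6.6%), the E-box in 14 (10.1%, against 7.3%), the GC box in 67 (48.2%, against 43.1%) and the CAAT box in 60 (43.2%, against 38.4%). The NBRE was found in 0 of 139, against 1.1% of all promoters. None of the 4 genes that rose after 1 session had a CRE, an AP-1 site or an NBRE in its window. Of 31 promoters of genes that fell after 6 sessions, 18 (58.1%) had a CAAT box, and of 98 promoters of genes called in no comparison, 36 (36.7%). The E-box stood in 0 of those 31 and in 14 of those 98 (14.3%). Both motifs were singled out after these shares were seen. A match is a description of letters and not of binding. The annotated starts were not checked as starts of transcription. Some of the windows counted may thus not be promoters, among the Zfp genes and in the whole set.

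After 6 sessions more Zfp genes passed, and most of them were lower than in Control. Zfp462, Zfp536, Zfp91, Zfp622, Zfp451, Zfp612 and Zfp638 rose, by 1.65-fold to 4.54-fold. A total of 34 fell, 28 of them at least 2-fold, led by Zfp266, Zfp395, Zfp775, Zfp878, Zfp282 and Zfp623. For Zfp775 the limit of the filter holds here too. The other 127 did not pass, with differences between -2.21 and 1.73. That fit shares its spread estimate among the groups, and fits of only the 2 groups compared turned the order of the counts. There 9 Zfp genes rose and 52 fell after 1 session, and 4 rose and 17 fell after 6. All genes gave 1055 rises and 2155 falls, then 669 and 848. For every Zfp gene that passed a comparison, the arrays of the 2 groups in that comparison did not overlap. Passing makes such a separation likely in itself, so it adds no weight to the calls.

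Zfp462, linked in human to a developmental disorder when 1 copy is lost, was at 11.26, 11.90 and 11.12 in Control, 11.75, 12.17 and 12.15 in 1XIMO and 14.32, 13.02 and 13.49 in 6XIMO. It rose by 2.18 ± 0.34 (adjusted p = 0.00228, and 1.83 without 6XIMO replicate 1), with the highest value on replicate 1. Its other probe set showed -0.04, so the rise rests on 1 of 2 probe sets, and the mean of both was 1.07 (adjusted p = 0.0315).

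Zfp91, a ubiquitin ligase for the NF-κB-activating kinase NIK, was at 12.68, 12.67 and 12.47 in Control, 12.18, 12.47 and 12.53 in 1XIMO and 14.82, 13.48 and 13.26 in 6XIMO. The rise of 1.25 ± 0.35 (adjusted p = 0.0302) was 0.77 without 6XIMO replicate 1. Its 6 probe sets ran from -1.17 to 1.69, and their mean gave 0.17 (adjusted p = 0.641), so no direction holds over the gene.

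Zfp622, which acts in maturation of the large ribosomal subunit, was at 11.89, 11.91 and 11.67 in Control, 11.67, 12.02 and 11.98 in 1XIMO and 13.18, 12.68 and 12.65 in 6XIMO. It has a single probe set and rose by 1.01 ± 0.21 (adjusted p = 0.00766, and 0.84 without replicate 1). Zfp451, a SUMO ligase, was at 11.86, 12.37 and 11.62 in Control and at 13.01, 12.84 and 12.89 in 6XIMO, a rise of 0.96 ± 0.22 (adjusted p = 0.0124, and 0.91 without replicate 1). Its other probe set gave -0.89, and the mean of both 0.04 (adjusted p = 0.919). Zfp638, an RNA-binding protein that in mouse promotes fat cell differentiation, rose by 0.72 ± 0.17 (adjusted p = 0.0146, and 0.69 without replicate 1), with 0.39 (adjusted p = 0.129) for the mean of its 3 probe sets.

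Among the genes that fell, Zfp623 and Zfp282 hardly moved when 6XIMO replicate 1 was left out. Zfp623 was at 11.83, 11.79 and 11.72 in Control, 11.18, 11.63 and 11.66 in 1XIMO and 9.70, 10.07 and 10.23 in 6XIMO, and fell by 1.78 ± 0.23 (adjusted p = 0.000881, and -1.63 without replicate 1). Zfp282, whose human counterpart HUB1 is a repressor, was at 10.74, 10.72 and 10.83 in Control, 10.27, 9.83 and 10.07 in 1XIMO and 8.79, 8.43 and 9.15 in 6XIMO. It fell by 1.97 ± 0.30 (adjusted p = 0.00206, and -1.97 without replicate 1) and, like Zfp462, kept this call under all 21 other settings. The 3 groups of Zfp282 did not overlap and stood in the order Control, 1XIMO, 6XIMO, although the 1XIMO difference of -0.71 ± 0.30 did not pass (adjusted p = 0.188, and 0.0471 without 6XIMO replicate 1).

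Zfp326, part of the DBIRD complex that couples transcription to splicing, was at 12.73, 12.77 and 12.75 in Control, 12.84, 13.13 and 13.31 in 1XIMO and 10.58, 11.43 and 11.65 in 6XIMO. It fell by 1.53 ± 0.27 after 6 sessions (adjusted p = 0.00432, and -1.21 without replicate 1) and was not lower after 1 on any array. Zfp692 (AREBP), which in human cells binds the promoter of a gluconeogenic enzyme gene, was at 11.41, 11.50 and 11.25 in Control, 11.16, 10.97 and 11.07 in 1XIMO and 9.50, 10.04 and 10.21 in 6XIMO, a fall of 1.48 ± 0.24 (adjusted p = 0.00283, and -1.27 without replicate 1). For the mean of its 2 probe sets the difference was -1.14 (adjusted p = 0.11).

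The largest fall rested in part on 1 array. Zfp266 was at 13.03, 13.40 and 13.40 in Control, 11.54, 11.86 and 11.65 in 1XIMO and 7.84, 11.59 and 11.59 in 6XIMO. The fall of 2.94 ± 0.82 (adjusted p = 0.0281) was -1.69 without replicate 1 (adjusted p = 4.62e-05). All 6 stressed arrays lay below all 3 Control arrays, yet the 1XIMO difference of -1.60 ± 0.82 did not pass with all arrays (adjusted p = 0.301), and adjusted p = 3.77e-05 without 6XIMO replicate 1. Zfp386 was at 13.02, 13.10 and 13.18 in Control and 10.66, 11.96 and 11.63 in 6XIMO, and fell by 1.68 ± 0.29 (adjusted p = 0.00399, and -1.30 without replicate 1).

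Zfp878 fell by 1.99 ± 0.38 (adjusted p = 0.00592, and -1.53 without replicate 1), Zfp758 by 1.78 ± 0.31 (adjusted p = 0.00387, and -1.61) and Zfp763 by 1.77 ± 0.45 (adjusted p = 0.0192, and -1.25). Zfp64 fell by 1.67 ± 0.38 (adjusted p = 0.0118, and -1.45). Zfp275 fell by 1.44 ± 0.24 (adjusted p = 0.00308, and -1.22), Zfp422 (Krox-25) by 1.24 ± 0.27 (adjusted p = 0.0101, and -0.96; -0.67 for the mean of its probe sets, of which the other read -0.10) and Zfp580 by 0.98 ± 0.22 (adjusted p = 0.0119, and -1.004). Zfp445, which with Zfp57 keeps imprinted DNA methylation in mouse and human embryos, read -0.98 ± 0.23 on its brighter probe set (adjusted p = 0.0132, and -1.14), 1.02 on the other and 0.02 for their mean (adjusted p = 0.967), so its direction turned with the probe set. Zfp609, which in mouse acts with the cohesin loader Nipbl, read -1.502 ± 0.37 (adjusted p = 0.0165, and -1.91) and -0.27 for the mean of 3 probe sets (adjusted p = 0.629).

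**Figure D2:**
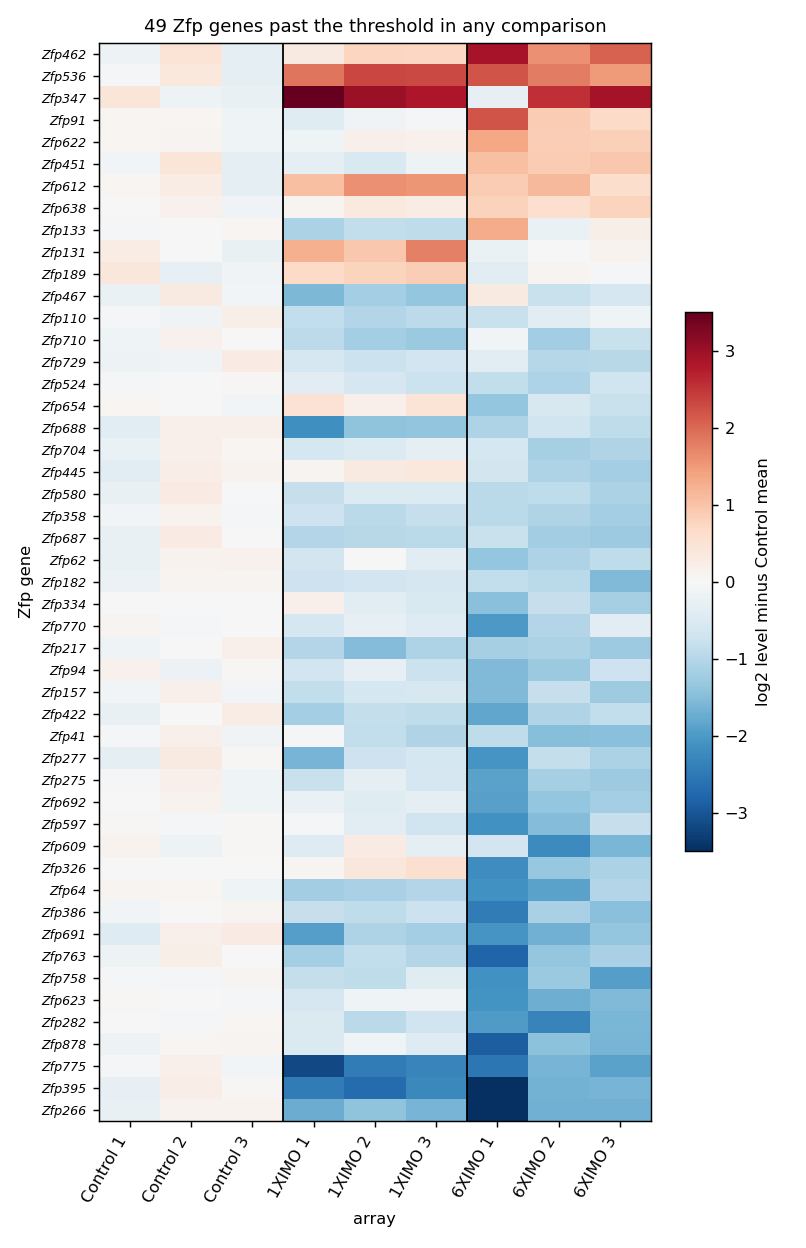
Difference of the level of each array from the Control mean (log2 colour scale, red higher and blue lower, values beyond 3.5 drawn at the end colour) for the 49 Zfp genes that passed in any comparison, ordered by the difference between 6XIMO and Control. Zfp266 and Zfp395 on 6XIMO replicate 1 lay at levels of 7.84 and 8.41, against 11.59 and 11.13 on replicate 2.

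Of all genes tested, 9.36% rose and 14.9% fell after 6 sessions, and of the Zfp genes 4.17% (7) and 20.2% (34). After quantile normalization the Zfp counts were 10 and 10 (5.95% each), with 9.15% and 8.43% of all genes, so the excess of falls over the background was not seen under that scaling. Without 6XIMO replicate 1 they were 10 and 85 (5.95% and 50.6%), with 17.9% and 30.3% of all genes. Without Control replicate 2 they were 6 and 14 and without Control replicate 3 they were 3 and 14. All genes gave 673 rises and 801 falls, then 605 and 777. Beside these changes, 6 of 9 cortex markers and 5 of 9 chromaffin markers rose in 6XIMO against Control and 1 cortex marker, Nr0b1, fell. The list medians were 1.55 and 1.62. After quantile normalization 2 of 9 rose in each list, and the medians were -0.14 for cortex and 0.25 for chromaffin, so this shift too depended on the scaling. Mean leukocyte marker levels were 10.08 to 11.33 in 6XIMO against 11.88 to 12.04 in Control over 4 of 5 listed genes. The part of tissue make-up and of RNA completeness in the 6XIMO values was not tested.

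**Figure D3:**
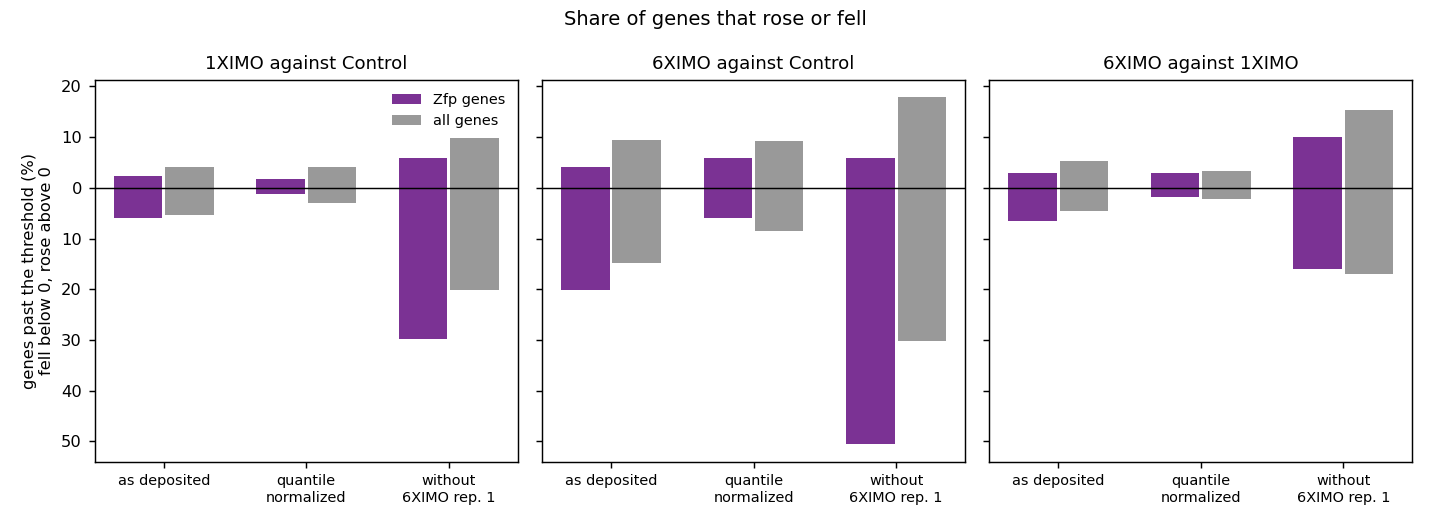
Percent of Zfp genes (purple) and of all genes tested (grey) that rose (above 0) or fell (below 0) in each comparison, with the values as deposited, after quantile normalization, and without 6XIMO replicate 1. In 6XIMO against Control the share of Zfp genes that fell was 20.2%, 5.95% and 50.6% under the 3 settings, against 14.9%, 8.43% and 30.3% of all genes.

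As a group the Zfp genes lay lower in both stressed groups than the array as a whole. After 1 session the median difference was -0.38, against -0.13 for all genes, and 132 of 168 differences (78.6%) were below 0, against 62.2%. After 6 sessions it was -0.50, against -0.23, with 131 (78.0%) below 0, against 61.4%. Array by array, the median Zfp level lay 0.62, 0.65 and 0.67 below that of all genes in Control, 0.74, 0.93 and 0.95 below in 1XIMO and 0.57, 1.03 and 0.96 below in 6XIMO. The 1XIMO arrays all lay farther below than any Control array, and 6XIMO replicate 1 lay nearer than any of them. Centring each array on its median moved the all-gene medians to 0.00 and -0.06 and the Zfp medians to -0.25 and -0.33. Since this takes the same constant from every gene of an array, it is no check on the gap between them. After quantile normalization the gap was -0.17 and -0.20, against -0.25 and -0.27 as deposited. The Zfp genes were also dimmer, with 73.2% below the median level of all genes. Over all genes, dimmer ones tended to fall more. The Spearman correlation of level and difference was 0.158 after 1 session and 0.183 after 6. Among the Zfp genes it was 0.265 and 0.272. After 6 sessions the median was -0.839 for the 56 dimmest Zfp genes and -0.375 for the 56 brightest. Whether the gap remains against genes of like level was not tested.

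**Figure D4:**
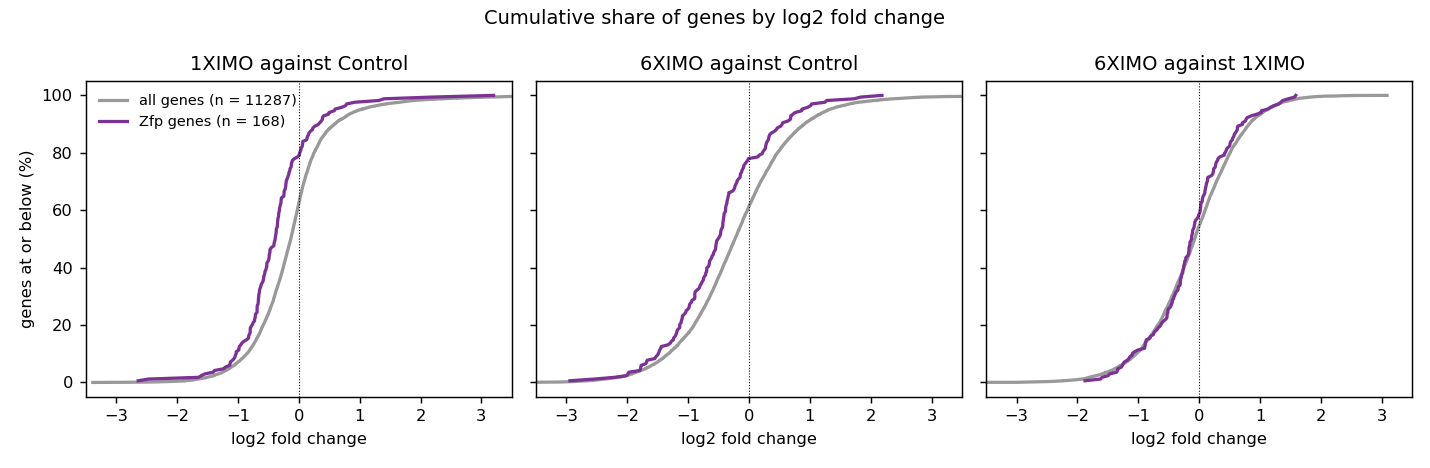
Cumulative percent of genes at or below each log2 fold change, for the 168 Zfp genes (purple) and all 11287 genes (grey), in the 3 comparisons. The Zfp curve lay to the left of the other in 1XIMO and 6XIMO against Control, with medians of -0.38 and -0.50 against -0.13 and -0.23, and near it in 6XIMO against 1XIMO, with -0.13 against -0.08.

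Between 6 sessions and 1, 16 Zfp genes differed. Zfp462, Zfp91, Zfp133, Zfp451 and Zfp622 were higher after 6 sessions. Zfp326, Zfp878, Zfp623, Zfp131, Zfp609, Zfp654, Zfp282, Zfp445, Zfp692, Zfp189 and Zfp275 were lower. Zfp462 rose by 1.58 ± 0.34 (adjusted p = 0.0217, and 1.23 without 6XIMO replicate 1), with -0.32 on its other probe set and 0.63 for the mean of both (adjusted p = 0.211). Zfp622 rose by 0.95 ± 0.21 (adjusted p = 0.0234, and 0.78). Zfp326 fell by 1.88 ± 0.27 (adjusted p = 0.00967, and -1.56). Zfp623 fell by 1.495 ± 0.23 (adjusted p = 0.0104, and -1.34).

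Zfp189, which in mouse cortex is a CREB target tied to resilience under stress, was at 11.56, 10.89 and 11.04 in Control, 11.83, 11.96 and 12.03 in 1XIMO and 10.79, 11.26 and 11.11 in 6XIMO. Its 1XIMO arrays lay above all others. The difference from Control was 0.77 ± 0.23 after 1 session (adjusted p = 0.0694) and -0.12 ± 0.23 after 6 (adjusted p = 0.749), and between 6XIMO and 1XIMO it fell by 0.89 ± 0.23 (adjusted p = 0.0416, and -0.75 without replicate 1). With the replicate number as a block this p was 0.0693. Without 6XIMO replicate 1 the 1XIMO difference passed (adjusted p = 0.00968). Zfp133 was at 10.73, 10.76 and 10.84 in Control, 9.66, 9.92 and 9.90 in 1XIMO and 12.08, 10.54 and 10.98 in 6XIMO. It was higher after 6 sessions than after 1 by 1.37 ± 0.36 (adjusted p = 0.0419, and 0.93 without replicate 1), and with the block this difference had adjusted p = 0.0627. Zfp609 also lost its call with the block (-1.34, adjusted p = 0.0734). Of the 16 genes, 7 have at least 2 probe sets above the filter, and all 7 lost the call for the mean of their probe sets. The values were -0.15 for Zfp445, -0.10 for Zfp609, 0.61 for Zfp451, 0.57 for Zfp91 and -1.05 for Zfp692, beside those of Zfp462 and Zfp131 given above.

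In this comparison 5.21% of all genes rose and 4.63% fell, against 2.98% and 6.55% of the Zfp genes. After quantile normalization 5 and 3 Zfp genes passed, with 3.41% and 2.13% of all genes, and without 6XIMO replicate 1 17 and 27, with 15.3% and 17% of all genes. Leaving out other arrays lowered the count of 5 rises and 11 falls to 3 and 7 without Control replicate 1, 3 and 5 without Control replicate 2 or 3, and 1 and 3 without 1XIMO replicate 1. It was 0 and 0 in limma without 1XIMO replicate 2 or 3, with 32 and 31 at an unadjusted p under 0.05. All genes gave 175 rises and 183 falls without 1XIMO replicate 1, 5 and 3 without replicate 2, and 0 and 0 without replicate 3.

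Several Zfp genes have more than 1 probe set, which read different stretches of the transcript. Of the Zfp genes, 53 had at least 2 probe sets above the filter. All probe sets of a gene moved one way in 40 of them (75.5%) in 1XIMO against Control, in 29 (54.7%) in 6XIMO against Control and in 20 (37.7%) in 6XIMO against 1XIMO, against 72.2%, 55.8% and 50.7% of 3249 genes on the whole array. Of the Zfp genes that passed and had several probe sets, 3 of 3 agreed after 1 session and 5 of 14 after 6. In the last comparison 2 of 7 agreed. For Zfp536 the 4 probe sets gave 2.18, 2.26, 0.05 and 0.30 after 1 session and 1.83, -0.18, 1.05 and 1.77 after 6, so its rise was not even over the transcript. Zfp292 (Zn-15), which in rat pituitary cells acts with Pit-1 on the growth hormone gene, lay lower after 1 session on all 6 probe sets, by -0.91 to -1.55. On the brightest its level was 11.11, 11.23 and 11.36 in Control, 10.20, 9.91 and 9.89 in 1XIMO and 11.64, 10.38 and 10.28 in 6XIMO, and the 1XIMO difference of -1.24 ± 0.35 missed the threshold (adjusted p = 0.0563, and 0.000569 without 6XIMO replicate 1). Its 6XIMO difference was -0.47, and -0.91 without that array (adjusted p = 0.00368).

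**Figure D5:**
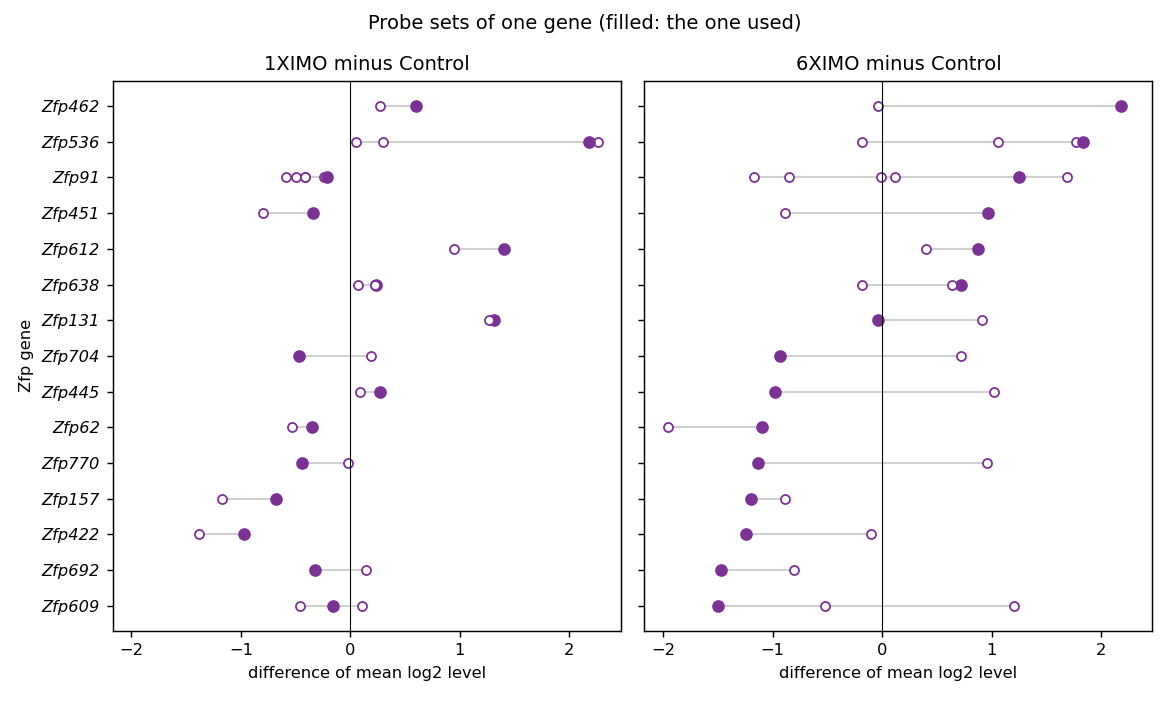
Difference of group means (log2) from Control for each probe set of the 15 Zfp genes that passed in any comparison and have at least 2 probe sets above the filter, filled for the one used. In 6XIMO the probe sets of Zfp91 ran from -1.17 to 1.69 and those of Zfp445 lay at -0.98 and 1.02.

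Many Zfp genes with known roles did not pass in any comparison with all arrays. Zfp57, the imprinting factor, was at 9.54, 9.37 and 9.08 in Control and 11.89, 10.02 and 9.90 in 6XIMO (1.27 ± 0.51, adjusted p = 0.0966, and 0.63 without replicate 1). Zfp667 (Mipu1), raised by ischaemia in rat heart, was at 11.71, 11.90 and 11.31 in Control, 12.05, 12.62 and 12.38 in 1XIMO and 12.27, 12.04 and 11.96 in 6XIMO, with a 1XIMO difference of 0.71 ± 0.22 (adjusted p = 0.0839, and 0.0167 without 6XIMO replicate 1). All 6 stressed arrays lay above Control. Zfp384 (CIZ), a nuclear matrix protein of bone cells, gave -1.11 ± 0.36 after 6 sessions (adjusted p = 0.051), and without replicate 1 it fell by a smaller amount that passed (-0.61, adjusted p = 0.00719). Zfp503 (Nolz1), a factor of striatal development, gave -0.85 ± 0.35 after 1 session (adjusted p = 0.181) and 1.22 ± 0.35 between 6XIMO and 1XIMO (adjusted p = 0.0562). Without replicate 1 both passed, the second at 0.76 (adjusted p = 0.00285 and 0.0106). The other Zfp503 probe sets read -0.395 and -0.734 after 1 session, and 0.118 and -0.403 between 6XIMO and 1XIMO. The second difference thus did not hold over the probe sets.

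Others lay closer to Control in both stressed groups. Zfp598, the sensor of collided ribosomes, differed by 0.14 ± 0.23 and -0.08 ± 0.23 (adjusted p = 0.861 and 0.82). Zfp746 (PARIS), a repressor of the mitochondrial coactivator PGC-1α, differed by 0.07 ± 0.23 and -0.09 ± 0.23 (adjusted p = 0.961 and 0.811). Zfp281, a factor of stem cells, differed by 0.19 ± 0.17 and 0.29 ± 0.17 (adjusted p = 0.626 and 0.243). Zfp207 (BuGZ), of the mitotic spindle, gave -0.33 ± 0.31 and -0.58 ± 0.31 (adjusted p = 0.661 and 0.2), and Zfp148 (ZBP-89) -0.56 ± 0.30 and -0.43 ± 0.30 (adjusted p = 0.33 and 0.324), of which the first passed without 6XIMO replicate 1 (adjusted p = 0.0205). Zfp143, which drives small nuclear RNA promoters, gave -0.02 ± 0.26 and 0.55 ± 0.26 (adjusted p = 0.995 and 0.146).

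Of the cofactors of KRAB repression, 30 of 37 listed genes were measured. After 1 session 1 fell and 0 rose, with 6 at an unadjusted p under 0.05 in limma. After 6 sessions 4 fell and 1 rose. The shares that fell, 3.33% and 13.3%, lay near those of all genes, 5.31% and 14.9%. Dnmt1, the maintenance DNA methyltransferase, was at 12.11, 12.54 and 12.43 in Control, 10.90, 10.78 and 10.93 in 1XIMO and 8.27, 10.07 and 10.61 in 6XIMO, and fell by 2.71 ± 0.49 after 6 sessions (adjusted p = 0.00481, and -2.02 without replicate 1). Morc3, a heterochromatin ATPase, fell by 0.71 ± 0.17 and by 1.21 ± 0.17 (adjusted p = 0.0284 and 0.00156, and -1.14 in the second without replicate 1). Setdb1 and Dnmt1 read -0.74 and -1.49 after 1 session (adjusted p = 0.0526 and 0.0973), and both passed without 6XIMO replicate 1. After 6 sessions Setdb1 fell by 0.81 ± 0.21 (adjusted p = 0.02, and -0.84 without replicate 1). Mta2, of the NuRD complex, fell by 0.71 ± 0.21 (adjusted p = 0.0327, and -0.58). Mbd3, of the same complex, rose by 0.63 ± 0.16 (adjusted p = 0.0203, and 0.68). Trim28 itself read -0.03 ± 0.29 and -0.53 ± 0.29 (adjusted p = 0.993 and 0.217, and -0.15 in the second without replicate 1). The list medians were -0.21 and -0.39, and without 6XIMO replicate 1 the counts were 0 rises and 7 falls, then 4 and 11, with 20.2% and 30.3% of all genes falling. After quantile normalization they were 0 and 0, then 3 and 5, where Trim28 passed (-0.73, adjusted p = 0.0279) and Setdb1 and Mta2 did not (adjusted p = 0.0583 and 0.0914).

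Of 23 genes of zinc transport and storage, 20 were measured. None passed after 1 session (limma, 0 at an unadjusted p under 0.05). After 6 sessions Mtf1, the zinc-sensing factor, rose by 1.36 ± 0.40 (adjusted p = 0.0332, and 1.15 without replicate 1) and the transporter Slc39a13 fell by 0.93 ± 0.29 (adjusted p = 0.0413, and -1.28), against 9.36% and 14.9% of all genes. Without 6XIMO replicate 1 the counts were 0 rises and 5 falls after 1 session and 3 and 4 after 6, and after quantile normalization 4 and 2 after 6.

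Other C2H2 families gave these counts. Of all genes, 4.2% rose and 5.31% fell after 1 session, and 9.36% and 14.9% after 6. Without 6XIMO replicate 1 the all-gene shares were 9.77% and 20.2%, then 17.9% and 30.3%. Of 13 Krueppel-like factors, 3 rose and 1 fell after 1 session, with a list median of 0.47. Klf4 was at 10.71, 10.51 and 10.17 in Control, 13.66, 13.92 and 13.96 in 1XIMO and 11.68, 11.76 and 11.48 in 6XIMO, a rise of 3.38 ± 0.20 and of 1.18 ± 0.20 (adjusted p = 1.75e-05 and 0.00348, and 1.16 in the second without replicate 1). After 6 sessions 3 of the 13 rose and 2 fell, with a median of -0.14. Without 6XIMO replicate 1 the counts were 5 and 1, then 5 and 4. After quantile normalization they were 3 and 1, then 2 and 2. Of 4 Egr genes, 2 rose in each comparison with Control, and Egr1 rose by 2.94 ± 0.35 and 3.41 ± 0.35 (adjusted p = 0.000993 and 0.000405, and 3.11 in the second without replicate 1). Of 33 Zbtb genes, which pair a BTB domain with C2H2 fingers, 2 rose and 0 fell after 1 session and 1 rose and 7 fell after 6, with medians of -0.31 and -0.30, and without 6XIMO replicate 1 the counts were 5 and 8, then 2 and 14. After quantile normalization they were 2 and 0, then 3 and 3. The share of Zbtb genes that fell after 6 sessions was 21.2%, against 14.9% of all genes as deposited. Of 2 Sp genes, 1 rose after 6 sessions, Sp1, by 0.80 ± 0.26 (adjusted p = 0.0493, 0.56 without replicate 1, and 0.119 as adjusted p after quantile normalization). Whether the families differ in response was not tested.

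Zfp genes often lie side by side. Of 165 placed through the GRCr8 gene table, 54 lay in 22 runs in which neighbours had at most 3 protein-coding genes between them, and 111 lay alone. The longest run held 6 genes, Zfp282, Zfp212, Zfp956, Zfp777, Zfp746 and Zfp467. Their 6XIMO differences from Control were -1.97, 0.32, -0.94, -0.23, -0.09 and -0.36, and of them Zfp282 passed. Of the 54 genes in runs, 0 rose and 4 fell after 1 session and 0 rose and 13 fell after 6, with medians of -0.51 and -0.67. Of the 111 alone, 4 rose and 6 fell, then 7 rose and 21 fell, with medians of -0.35 and -0.42. Of all genes, 4.2% rose and 5.31% fell, then 9.36% and 14.9%. Without 6XIMO replicate 1 the counts in runs were 2 and 18, then 1 and 32, and alone 8 and 32, then 9 and 52, with 20.2% and 30.3% of all genes falling. No test of the difference between the classes was made.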

How the data were processed

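Adrenal medulla RNA from 3 groups was labelled by Affymetrix, per the labels' protocols, and put on 9 of its arrays. The deposited table holds 1 linear intensity per probe set and array, scaled per array by the authors. For the summary method, background step and genome build: not given in the sources used here. Of 31099 probe sets, 57 array controls were left out, and 20826 had 1 gene symbol. After log2(intensity + 16), those in the lowest 30% of mean level were dropped and the brightest probe set stood for each of 11287 genes. limma 3.58.1 in R 4.3.3 (lmFit, eBayes with a mean-variance trend) fitted all 9 arrays together, with 6 residual degrees of freedom and Benjamini-Hochberg adjustment over all genes. Tests were two-sided. Errors of differences are SE of this shared fit. The script was tested on simulated data. The number of arrays limits the precision.

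The Zfp genes, the gene lists and the rule for named genes were chosen with earlier results of these data known. The rule names, per comparison, up to 12 genes with the largest rise and fall among those past the threshold without overlap of groups, and Zfp genes with a known role, of which those with values near the threshold or near 0 are described. Zfp292, chosen for its 6 probe sets, and Zfp212, Zfp956 and Zfp777, chosen as neighbours, were named after their values were seen.

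Samples of the same number deviated together in 1XIMO and Control (correlations over genes of their deviations from the group means 0.508, 0.36 and 0.25). Yet 1XIMO replicate 3 correlated with Control replicate 2 at 0.275. The numbers may thus pair these samples, which the labels do not say and the data do not settle. In both comparisons with 6XIMO not every such correlation was over 0.1. The blocked value is given where it changes the call of a value described, and 3 calls of 6XIMO against Control not described singly (Zfp334, Zfp654 and Zfp729) were lost with the block. Other settings were quantile normalization, median centring, pseudocounts of 1 and 64, no filter or one of 50%, the mean of all probe sets, the block, fits of 2 groups, array weights, leaving out each array, and both scalings without 6XIMO replicate 1. Sequences are from RefSeq (GRCr8), with 165 of 168 genes matched by gene ID. Protein sequences were not used here.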

Additional observations from a re-analysis of the deposited data

Results flagged for a closer look

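The responses to 1 and to 6 sessions differed in 16 Zfp genes, by limma's test of 6XIMO against 1XIMO on the 9 arrays. This is the test of the difference itself, since both are set against the same Control. In it 2.98% of Zfp genes rose and 6.55% fell, against 5.21% and 4.63% of all genes, so the shares lay near those of the array. On the log2 scale the differences below 0 were -1.876 for Zfp326 (adjusted p = 0.00967), -1.619 for Zfp878 (0.0292), -1.495 for Zfp623 (0.0104) and -1.356 for Zfp131 (0.0181). Those of Zfp609, Zfp654, Zfp282 and Zfp445 were -1.34, -1.277, -1.262 and -1.246 (adjusted p = 0.0488, 0.0251, 0.0293 and 0.0143). Those of Zfp692, Zfp189 and Zfp275 were -1.154, -0.887 and -0.876 (adjusted p = 0.0204, 0.0416 and 0.0475). The differences above 0 were 0.947 for Zfp622, 1.307 for Zfp451, 1.37 for Zfp133, 1.461 for Zfp91 and 1.585 for Zfp462 (adjusted p = 0.0234, 0.012, 0.0419, 0.033 and 0.0217). In each of the 16 genes the 3 arrays of 6XIMO lay on one side of the 3 arrays of 1XIMO. Passing the test makes this likely in itself. All 16 genes also passed without 6XIMO replicate 1. Other settings kept fewer. With the replicate block 13 passed, and Zfp133, Zfp189 and Zfp609 were lost (adjusted p = 0.0627, 0.0693 and 0.0734). With the mean of all probe sets 9 passed, but these have 1 probe set above the filter, so this setting could not change their values. All 7 genes with at least 2 such probe sets lost the call. Quantile normalization kept 7, median centring 1, and the fit without 1XIMO replicate 1 kept 4. It was 0 in limma without 1XIMO replicate 2 or 3 or in the fit of the 2 groups alone (32, 31 and 29 Zfp genes at an unadjusted p under 0.05).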

How the results depend on the processing

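Counts of Zfp genes depended on scaling and on single arrays. In the order 1XIMO against Control, 6XIMO against Control and 6XIMO against 1XIMO, they were 4, 7 and 5 rises and 10, 34 and 11 falls. Median centring gave 1, 4 and 1 rises and 0, 2 and 0 falls (limma, 22 and 24 at an unadjusted p under 0.05 in the first and last comparison). Quantile normalization gave 2, 10 and 3 falls. Fits of 2 groups gave 9, 4 and 0 rises and 52, 17 and 0 falls (29 at an unadjusted p under 0.05 in the last). Among all genes 1055, 669 and 0 rose and 2155, 848 and 3 fell. Array weights, whose estimation ended with a convergence warning, gave 13, 13 and 24 rises and 68, 99 and 47 falls. All-gene counts were then 1523, 2398 and 2518 rises and 2975, 4157 and 3070 falls. The mean of all probe sets gave 3 and 2 rises in the comparisons with 6XIMO and turned Zfp445 in 6XIMO against Control to 0.023. Leaving out 1 array at a time gave 2 to 10, 3 to 10 and 0 to 17 rises and 0 to 50, 14 to 85 and 0 to 27 falls, the highest without 6XIMO replicate 1. Without that array 1103, 2016 and 1729 of all genes rose and 2285, 3421 and 1924 fell. Without 6XIMO replicate 1, quantile normalization gave 13, 18 and 20 rises with 34 falls in the first comparison. All-gene counts were 1261, 1886 and 1404 rises with 2137 falls in the first. Median centring without this array, a setting chosen after seeing the data, gave 10, 36 and 38 rises with 23 and 19 falls in the first and second. All-gene counts were then 1134, 3950 and 3815 rises with 1089 and 994 falls. The Zfp median in 1XIMO against Control was -0.384 and moved to -0.271 (quantile), -0.254 (median centring, with and without that array) and -0.28 (quantile without it). With median centring without it, the medians of the comparisons with 6XIMO were -0.017 and 0.309, against 0.384 and 0.427 for all genes. Each call of a Zfp gene in a comparison was also read under each other setting in which the gene was tested. Of these repeat readings, which are not separate genes, 1050 kept direction and side of the threshold, 433 lost the call and 1 turned. Settings such as the pseudocounts of 1 and 64 kept every call. With the replicate number as a block, the counts were 4, 7 and 4 rises and 11, 36 and 9 falls. For all genes they were 446, 1046 and 468 rises and 531, 1695 and 475 falls. Same-numbered 6XIMO samples correlated at 0.142, 0.06 and 0.158 with Control and 0.15, 0.078 and 0.088 with 1XIMO, so there too the number is not shown to pair samples. Signals near the filter and 3 arrays a group limit what could be called.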
